A study of Mus musculus with 2 samples.

Results

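The Wnt signalling genes described here are 47 mouse genes, namely 19 Wnt ligands, 13 receptors and co-receptors, 8 secreted antagonists, 1 enzyme of ligand secretion and 6 effectors. They were chosen by symbol, and all 47 were found among the 29311 genes listed for both samples. RNA-seq was performed on 2 samples, 1 of ES cells and 1 of E10.5 forebrain. The ES cells were wild-type (WT) cells of the E14 line, which were cultured without feeders in the presence of serum and LIF, a cytokine that keeps them undifferentiated. The forebrain sample came from WT embryos of the B6CBAF1/J background at stage E10.5, at mid-gestation. According to the methods, forebrain RNA was taken from single embryos, whereas the label of the same sample gives a number of cells instead. ES cells were lysed in Trizol and forebrain in Trizol LS. Strain, culture or embryo, and reagent therefore differ along with the sample type, and their parts cannot be told apart. There are no replicates, so no test between the samples was possible. All intervals given below are 95% intervals that cover the counting of reads only.

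Wnt proteins are secreted, lipid-modified signals that bind Frizzled receptors (Fzd) together with the co-receptors Lrp5 and Lrp6. In the canonical branch, this binding blocks the complex that destroys β-catenin, so that β-catenin enters the nucleus and acts with TCF/LEF factors on target genes. Secreted antagonists either hold Wnt proteins away from their receptors (Sfrp family) or occupy the co-receptors (Dkk family). In mouse ES cells, canonical signalling is known to favour self-renewal, and in the embryonic forebrain Wnt ligands released near the dorsal midline are known to pattern the cortex and hippocampus.

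Total RNA depleted of ribosomal RNA was read as strand-specific single-end libraries, and the authors deposited a value per gene called RPKM (reads per kb of gene model, scaled per sample). Most low values of short genes (65.8% in ES cells and 68.5% in forebrain) lie close to multiples of what 1 read contributes. For a gene model of 1 kb, 1 read equals an RPKM of 1.22 in the ES cell library and of 0.819 in the forebrain library. This step gives 42779356 and 59785509 inferred reads on genes, respectively. All read numbers given below are rounded estimates from it. A scaling per 1000000 of these reads would make 1 such read worth 0.0234 and 0.0167, so the deposited values are far above RPKM in its usual sense and are used here as relative levels. Over all listed genes the median was 48.9 for ES cells and 62.4 for forebrain. All 8 markers of ES cells were higher in ES cells, with a summed RPKM of 40877 compared with 311 in forebrain, and all 8 forebrain markers were higher in forebrain (2924 compared with 99.6). The forebrain sample also held transcripts of other cell types. All 8 mesenchyme markers were higher there, with a summed RPKM of 16346 compared with 57.8 in ES cells and none at 0. Higher levels in forebrain were also found for 3 of 4 endothelial markers and for 4 of 4 red blood cell markers (674938 and 328). All 4 endothelial markers together summed to 1551 in forebrain and 579 in ES cells. *Pecam1*, which did not go with the other 3, made up 317 and 551 of these sums. Of 5 surface ectoderm markers, 3 were at least 2-fold higher in forebrain and 1 in ES cells (sums 290.2 and 1724). *Epcam* alone made up 206 and 1685 of these sums. Of 4 endoderm markers, 3 were at least 2-fold higher in forebrain and 1 in ES cells (77.8 and 9.11). The part of these other cell types in the differences below was not tested. In both samples, fewer cells of a type and less RNA per cell cannot be told apart.

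Most Wnt pathway members had the higher level in E10.5 forebrain. On log2(RPKM + 1), 30 of the 47 members (63.8%) were at least 2-fold higher in forebrain, where 25.8% of all listed genes were. Only 6 members (12.8%) were at least 2-fold higher in ES cells, compared with 23.3% of all listed genes. These were *Wnt8a*, *Fzd5*, *Fzd10*, *Sfrp4*, *Porcn* and *Tcf7*. The other 11 members differed by less than 2-fold. At least 4-fold differences were found for 21 members in favour of forebrain and for 2, *Wnt8a* and *Fzd5*, in favour of ES cells, compared with 14.4% and 11.3% of all listed genes. The median log2 ratio of ES cells over forebrain was -1.60 for the members and -0.01 for all listed genes. A value above 0 was found for 46 members in ES cells, all but *Wnt1*, and for all 47 in forebrain. At least 3 reads were found for 44 and 46 members, respectively.

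**Figure D1:**
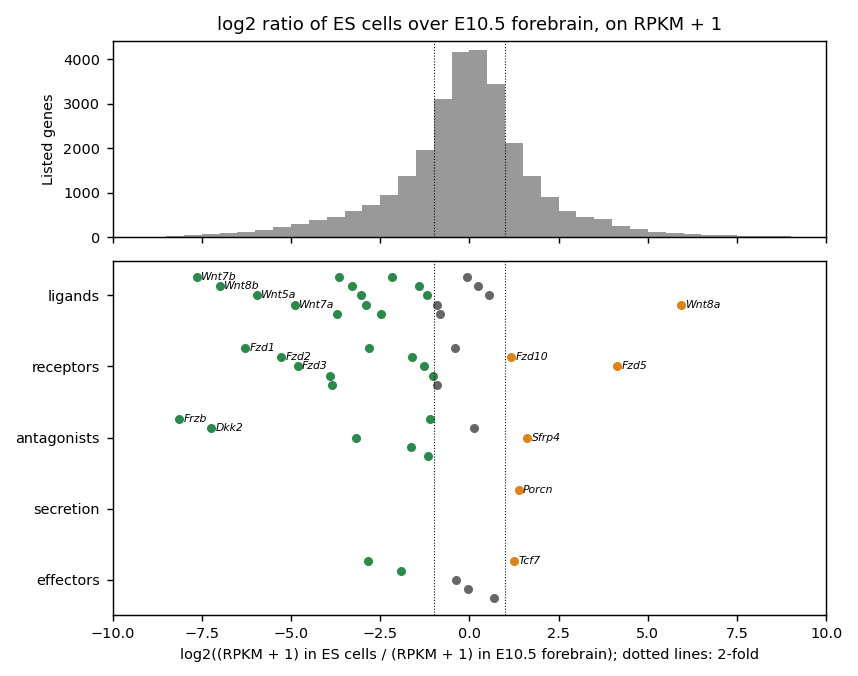
log2 ratio of (RPKM + 1) in ES cells over (RPKM + 1) in E10.5 forebrain. The upper panel is a histogram of the listed genes (34 of 29311 lie outside the plotted range), and each point below is a member, in orange where it was at least 2-fold higher in ES cells, in green where at least 2-fold higher in forebrain and in grey otherwise. The 30 green points lie left of the dotted 2-fold line and the 6 orange points right of it, whereas the histogram is nearly centred at 0.

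Ligand transcripts were lower in ES cells and came from fewer genes. The 19 Wnt genes summed to an RPKM of 498 in ES cells and of 2099 in forebrain, a 4.22-fold difference, from 1024 and 10920 reads. Of these genes, 13 (68.4%, compared with 25.8% of all listed genes) were at least 2-fold higher in forebrain. In ES cells 1 was higher (5.26%, compared with 23.3%), and 5 were in neither group. The median log2 ratio was -2.47. In ES cells, *Wnt5b* alone held 51.4% of the summed ligand RPKM, and *Wnt5b*, *Wnt6* and *Wnt8a* together held 87.7%. In forebrain the largest contributor, *Wnt7b*, held 32.8%, and it took *Wnt7b*, *Wnt5a*, *Wnt5b*, *Wnt8b* and *Wnt7a* to reach 82.3%.

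**Figure D2:**
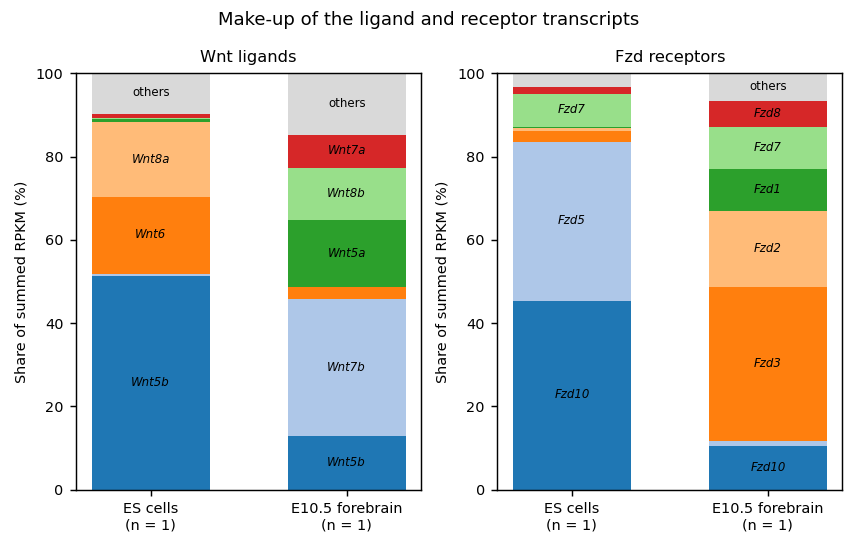
Share of the summed RPKM (%) held by each Wnt ligand (left) and each Fzd receptor (right) in ES cells and E10.5 forebrain, 1 sample each. A colour stands for the same gene within a panel, and genes that stay small in both samples are pooled as others. *Wnt5b* (51.4%) and *Fzd10* (45.3%) are the largest blocks in ES cells, and *Wnt7b* (32.8%) and *Fzd3* (36.9%) in forebrain.

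*Wnt8a* was the only ligand at least 2-fold higher in ES cells. This gene, a canonical ligand otherwise known from the gastrulating embryo, lies on chromosome 18 (34701967 to 34707927, mm9, forward strand). Its RPKM was 89.5 in ES cells (128 reads, interval 74.7 to 106) and 0.470 in forebrain (1 read, 0.0119 to 2.61). The ratio was 190.4 (33.6 to 7594), with a wide interval because of the lone forebrain read. Its nearest paralog *Wnt8b*, a ligand of the dorsal forebrain midline, showed the opposite pattern. *Wnt8b* had 1.08 in ES cells (3 reads) and 263 in forebrain (1082 reads), a ratio of 243 in favour of forebrain (82.6 to 1175). The 4 primitive streak markers, genes of an embryonic region where *Wnt8a* is also known to be active, summed to an RPKM of 1219.9 in ES cells and of 323 in forebrain, and their part in the level of *Wnt8a* was not tested. *T* (brachyury) accounted for 1112 of the former value and had 2.66 in forebrain. *Mixl1* was also higher in ES cells (9.05 and 1.07), while *Eomes* (90.1 and 234) and *Gsc* (8.69 and 85.8) were higher in forebrain.

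Most ligands with the highest levels in forebrain rested on few reads in ES cells. *Wnt7b*, a ligand of the developing cortex and of blood vessel formation in the brain, had 688 in forebrain (666 to 711) and 2.49 in ES cells (9 reads, 1.14 to 4.73), a 276-fold difference (145 to 605). Its paralog *Wnt7a* had 171 and 4.81, and was 35.5-fold higher in forebrain (21.0 to 72.0). *Wnt5a*, a ligand best known for signalling without β-catenin, had 336 in forebrain (3210 reads) and 4.45 in ES cells (29 reads), a 75.5-fold difference (51.6 to 111). Its paralog *Wnt5b* behaved otherwise, as it had nearly the same level in both samples. *Wnt5b* had 256 in ES cells (235 to 278) and 271 in forebrain (253 to 289), and the interval of their ratio, 0.950 to 1.18, includes 1. *Wnt5b* was therefore the highest ligand of ES cells, whereas in forebrain its interval overlapped that of *Wnt8b* (247 to 279).

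*Wnt3a*, *Wnt3* and *Wnt2b* were higher in forebrain as well, at lower levels than *Wnt7a*. *Wnt3a*, which is produced by the cortical hem and required for the hippocampus, had 82.8 in forebrain and 7.52 in ES cells (11.0-fold, 6.75 to 19.2). Its paralog *Wnt3*, needed for gastrulation, had 71.5 and 4.76 (15.0-fold, 8.47 to 29.5). *Wnt2b* had 42.4 and 6.83 (6.21-fold, 3.90 to 10.4). The intervals of *Wnt3a* and *Wnt3* overlapped in both samples, so that their order was not resolved.

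A further 4 ligands had lower levels and were still at least 2-fold higher in forebrain. *Wnt9a*, known from joint formation, had 34.2 in forebrain and 3.67 in ES cells (9.32-fold, 4.92 to 19.9). *Wnt4*, known for its role in kidney and ovary, had 20.7 and 3.81 (5.43-fold, 3.07 to 10.6). *Wnt4* contains short stretches that are nearly identical to other transcripts, the longest 112 bp at 98.2% identity, and its reads may have been split. *Wnt9b*, also a kidney ligand, had 15.7 from 86 reads in forebrain and 0.270 from 1 read in ES cells, a ratio of 58.1 (10.1 to 2305). *Wnt1*, which marks the midbrain and its border with the hindbrain, had no read in ES cells and 7.19 in forebrain (21 reads, 4.45 to 11.0). It was at least 4.70-fold higher in forebrain when a floor of 3 reads is taken for ES cells. Of the 6 midbrain and hindbrain markers, 3 were higher in forebrain and 1 in ES cells, with a summed RPKM of 63.4 in forebrain, none at 0, and of 518 in ES cells, where *Pax2* was at 0. *Gbx2* alone made up 460.0 of the sum in ES cells, and *En2* another 44.4. Their part in the level of *Wnt1* was not tested.

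For the remaining ligands the levels were low or similar. *Wnt6* had 90.9 in ES cells (77.1 to 106) and 61.2 in forebrain (51.7 to 71.4), a 1.49-fold difference (1.18 to 1.88). Its interval in ES cells overlapped that of *Wnt8a*. *Wnt11*, a ligand of cell movements in the embryo, had 12.3 and 10.2 (ratio 1.21, 0.771 to 1.94). *Wnt16* had 3.52 in ES cells and 7.54 in forebrain (2.14-fold, 1.26 to 3.90), which stays within 2-fold once 1 is added to each value. *Wnt2* had 1.89 and 6.72 from 3 and 19 reads (3.56-fold, 1.25 to 22.4). The paralogs *Wnt10a* and *Wnt10b* had 2.47 and 1.57 in ES cells and 5.14 and 4.91 in forebrain, and both ratio intervals include 1 (0.695 to 7.08 and 0.874 to 17.0). *Wnt10b* was nevertheless past the 2-fold limit, so its call is not resolved at this depth.

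**Figure D3:**
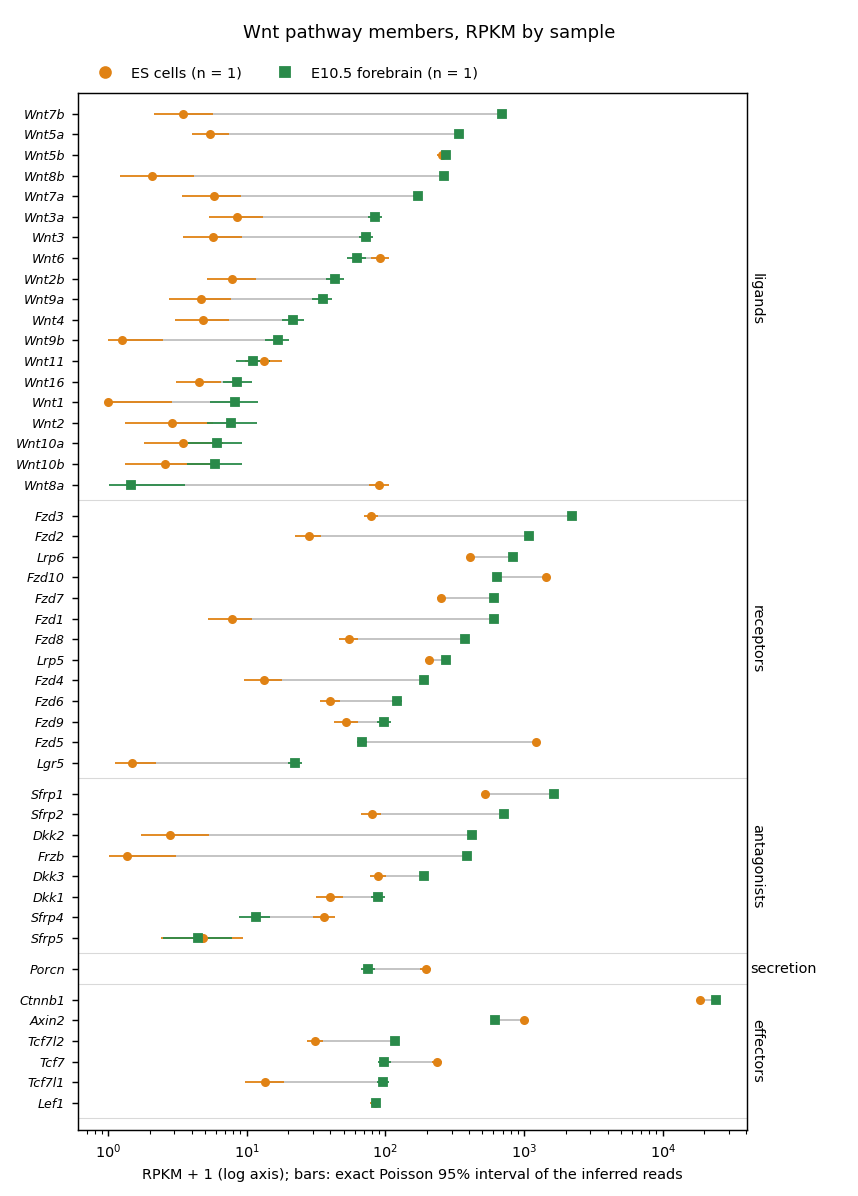
RPKM + 1 of the 47 members on a log axis in ES cells (orange circles) and E10.5 forebrain (green squares), 1 sample each, ordered within each role by the forebrain value. Bars are exact Poisson intervals of the inferred reads. Green lies right of orange for most genes, and the reverse holds with a wide gap for *Wnt8a* (89.5 and 0.470) and *Fzd5* (1213 and 67.3).

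Some Wnt genes lie next to each other in the genome, with no other listed gene between them. *Wnt3* and *Wnt9b* are divergent on chromosome 11 (103588678 to 103679271, mm9) and 24.3 kb apart, and both were higher in forebrain. The divergent neighbours *Wnt3a* and *Wnt9a*, 16.2 kb apart on chromosome 11 (59061535 to 59147054), were also both higher in forebrain. *Wnt10b* and *Wnt1*, 11.7 kb apart on chromosome 15 (98602184 to 98624268), were both low in either sample. On chromosome 1 (74818466 to 74850753), *Wnt6* and *Wnt10a* lie in tandem with a gap of 6.20 kb. They differed in level, as *Wnt6* had 90.9 and 61.2 while *Wnt10a* had 2.47 and 5.14 in ES cells and forebrain.

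The secretion enzyme of the list went the other way from most ligands. *Porcn*, the acyltransferase that attaches the lipid to Wnt proteins, had 195 in ES cells (177 to 213) and 74.1 in forebrain (65.7 to 83.6), a 2.62-fold difference in favour of ES cells (2.25 to 3.05). *Wls*, a secretion gene that is no member, went with most ligands. It had 112 in ES cells and 2262 in forebrain (20.1-fold higher in forebrain, 18.0 to 22.6).

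Receptor transcripts were abundant in both samples, but different Fzd genes carried them. The summed RPKM of the 10 Fzd genes was 3167 in ES cells and 5989 in forebrain, a 1.89-fold difference. Of these genes, 7 (70.0%) were at least 2-fold higher in forebrain, compared with 25.8% of all listed genes. Another 2 (20.0%) were higher in ES cells, near the 23.3% of all listed genes, and 1 was in neither group. In ES cells, *Fzd10* and *Fzd5* together held 83.6% of the sum. In forebrain *Fzd3* held 36.9%, *Fzd2* 18.2%, *Fzd10* 10.6%, and *Fzd7* and *Fzd1* 10.1% each.

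*Fzd5* had the largest ratio in favour of ES cells among the receptors. This gene, required for the yolk sac vasculature and the eye, lies on chromosome 1 (64777134 to 64784324, mm9, reverse strand). *Fzd5* had 1213 in ES cells (6869 reads, 1185 to 1242) and 67.3 in forebrain (568 reads, 61.9 to 73.1), an 18.0-fold difference (16.5 to 19.7). Its closest relative *Fzd8* had 53.3 and 377, and was 7.07-fold higher in forebrain (5.96 to 8.43). The pair thus had inverse levels in the 2 samples. *Fzd10* had 1436 in ES cells and 635 in forebrain (2.26-fold, 2.15 to 2.38). A second listed identifier of *Fzd10*, annotated as a pseudogene on the same strand, covers 74.8% of its exonic length and had 1712 and 737. Reads of these entries cannot be told apart, and the level of *Fzd10* is uncertain for that reason. *Fzd9*, its relative, had 50.9 and 96.3 (1.89-fold higher in forebrain, 1.49 to 2.41).

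Of the 5 Fzd genes with the largest shares in forebrain, all but *Fzd10* were at least 2-fold higher there. *Fzd3*, which guides axons through planar polarity signalling, had 2209 in forebrain and 77.7 in ES cells (28.4-fold, 25.2 to 32.2), and it was at percentile 94.8 of the listed genes in forebrain. Its relative *Fzd6* had 120.4 and 39.0 (3.08-fold, 2.56 to 3.77). *Fzd2* had 1088 and 27.0 (40.3-fold, 32.4 to 51.1). *Fzd1* and *Fzd7*, which belong to the same subfamily as *Fzd2*, had almost equal levels in forebrain but not in ES cells. *Fzd1* had 603 in forebrain (582 to 624) and 6.79 in ES cells (4.29 to 9.97), an 88.8-fold difference (60.4 to 141). *Fzd7* had 603 in forebrain (583 to 623) and 252 in ES cells (236 to 268), a 2.40-fold difference (2.23 to 2.57). *Fzd4*, the receptor of retinal and brain vessels, had 190.3 and 12.3 (15.5-fold, 11.2 to 22.2). Of the 4 endothelial markers, *Cdh5* (1.53 in ES cells and 326 in forebrain), *Tie1* (1.49 and 308) and *Kdr* (25.0 and 601) were higher in forebrain along with it, while *Pecam1* had 551 in ES cells and 317 in forebrain. None was at 0, and their part in the level of *Fzd4* was not tested.

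Co-receptors differed less. *Lrp5* had 205 in ES cells and 270.4 in forebrain (1.32-fold, 1.22 to 1.44), and *Lrp6* had 407 and 833 (2.05-fold, 1.97 to 2.13), just past the 2-fold limit. *Lgr5*, a receptor of R-spondins and itself a canonical target gene, had 0.480 in ES cells (4 reads) and 21.5 in forebrain (269 reads), a 44.7-fold difference (17.4 to 167). Its relatives *Lgr4* and *Lgr6*, which are no members, did not share this difference. *Lgr4* had 885 in ES cells and 523 in forebrain (1.69-fold, 1.62 to 1.77), and *Lgr6* had 4.33 and 2.48.

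Summed over the 8 secreted antagonists of the list, RPKM was 771 in ES cells and 3461 in forebrain, a 4.49-fold difference. Of the 8 genes, 6 (75.0%, compared with 25.8% of all listed genes) were at least 2-fold higher in forebrain. In ES cells 1 was higher (12.5%, compared with 23.3%), and 1 was in neither group. The sum leaves out *Notum*, a secreted enzyme described below, which had 1142 in ES cells and 12.4 in forebrain. Of 5 further antagonists outside the list, 3 (60.0%) were at least 2-fold higher in forebrain and 1 (20.0%) in ES cells. *Frzb*, a Wnt-binding antagonist of cartilage and neural crest, had the largest ratio of all members. It lies on chromosome 2 and had 0.380 in ES cells (1 read, 0.00955 to 2.10) and 388 in forebrain (1532 reads, 368 to 408). The ratio was 1020.2, with an interval of 184 to 40621 that rests on the lone read in ES cells. Of the 8 antagonist members, *Sfrp1* was highest in both samples, with 525 in ES cells and 1641 in forebrain (3.13-fold, 2.97 to 3.29). It held 68.1% of the summed antagonist RPKM in ES cells and 47.4% in forebrain. *Sfrp2* had 78.5 and 721 (9.17-fold, 7.74 to 11.0). A lincRNA on the other strand covers 16.1% of the exonic length of *Sfrp2* and had 30.5 and 379. Such an overlap on the other strand, between 0.861% and 16.1% of the exonic length, was found for 7 members, and whether the counting used the strand is not given in the sources used here. *Sfrp4* was the exception, with 34.8 in ES cells (28.9 to 42.0) and 10.6 in forebrain (7.86 to 13.8), a 3.28-fold difference (2.38 to 4.71). *Sfrp5* was low in both samples, with 3.86 from 6 reads and 3.45 from 8 reads (ratio 1.12, 0.320 to 3.67).

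All 3 Dkk genes among the members were at least 2-fold higher in forebrain, where 25.8% of all listed genes were. *Dkk2* had 1.82 in ES cells (6 reads) and 421 in forebrain (1898 reads), a 231-fold difference (97.3 to 579). *Dkk1*, the head inducer and a known feedback target of canonical signalling, had 38.7 and 87.8 (2.27-fold, 1.75 to 2.96). *Dkk3*, a divergent family member, had 87.8 and 189 (2.16-fold, 1.87 to 2.51). *Dkk2* and *Frzb* are also known from mesenchyme and neural crest. The mesenchyme markers listed here ranged from 132 (*Foxc2*) to 10812 (*Col3a1*) in forebrain and from 2.02 to 13.9 in ES cells, and their part in the levels of both antagonists was not tested.

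Of the 6 effectors, 3 stayed within 2-fold, 2 were higher in forebrain and 1 in ES cells, with a median log2 ratio of -0.20. These counts are near those of all listed genes, of which 14923 of 29311 stayed within 2-fold. *Ctnnb1*, which encodes β-catenin, was by far the most abundant member in both samples. It had 18558 in ES cells (percentile 99.2) and 24145 in forebrain (percentile 99.6), a 1.30-fold difference (1.29 to 1.31). *Axin2*, a scaffold of the destruction complex and the standard readout of canonical signalling, had 993 in ES cells (964 to 1023) and 615 in forebrain (596 to 634). Its level was 1.62-fold higher in ES cells (1.55 to 1.69), which is within 2-fold.

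The TCF/LEF genes summed to nearly the same RPKM, 361 in ES cells and 394 in forebrain, but the sum was spread more evenly in forebrain. *Tcf7* had 235 in ES cells (216 to 256) and 97.3 in forebrain (87.0 to 108), a 2.42-fold difference (2.10 to 2.78), and held 65.2% of the sum in ES cells. *Tcf7l1*, mostly a repressor and known as a brake on the ES cell transcription network, had 12.5 and 95.6 (7.66-fold higher in forebrain, 5.39 to 11.2). It was the lowest of the 4 genes in ES cells, with 3.46% of the sum. *Tcf7l2* had 30.2 and 117 (3.87-fold higher in forebrain, 3.34 to 4.48). *Lef1* had 82.6 and 84.1, and the interval of the ratio, 0.917 to 1.13, includes 1. In forebrain no TCF/LEF gene exceeded 29.7% of the sum.

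Other genes of the pathway, 53 listed of a set of 54 that are no members, differed in the same direction more often than not. Here 26 were at least 2-fold higher in forebrain (49.1%, compared with 25.8% of all listed genes), 5 in ES cells (9.43%, compared with 23.3%) and 22 in neither, with a median log2 ratio of -0.98. The gene that was not listed was *Cer1*. The R-spondins, secreted proteins that strengthen the Wnt response, were past the 2-fold limit in favour of forebrain in 4 of 4 cases, although *Rspo4* (0.510 and 2.07, from 1 and 6 reads) was not resolved, since its ratio interval of 0.488 to 185 includes 1. *Rspo2* had 0.370 in ES cells and 344 in forebrain, *Rspo3* had 1.02 and 439, and *Rspo1* had 12.6 and 361. Their ratios rest on 1, 2 and 20 reads in ES cells and were 930.4 (168 to 37044), 430.4 (119 to 3558) and 28.6 (18.4 to 47.1).

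Antagonists among these other genes went both ways. *Notum*, a secreted enzyme that removes the lipid from Wnt proteins, had 1142 in ES cells and 12.4 in forebrain, and was 92.0-fold higher in ES cells (65.6 to 129). *Sostdc1*, which binds the co-receptors, had no read in ES cells and 89.6 in forebrain, at least 42.8-fold higher with a floor of 3 reads. *Nkd1*, an intracellular feedback inhibitor, had 10.7 and 257 (24.1-fold, 17.5 to 34.0). *Notum* and *Nkd1* are both known as canonical targets, yet they had inverse patterns. The caudal homeobox gene *Cdx1*, another known target, had 677 in ES cells and 1.64 from 4 reads in forebrain (413-fold, 141 to 1329).

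The remaining genes named by the same rule were higher in forebrain. *Pygo1*, a co-activator that acts with β-catenin, had 2.78 in ES cells and 299.9 in forebrain (108-fold, 68.2 to 183). *Celsr2*, a cadherin of planar polarity, had 7.42 and 260.2 (35.1-fold, 27.7 to 45.1). *Ror1*, a receptor of *Wnt5a*-type signals, also had 7.42 in ES cells, and 199 in forebrain (26.9-fold, 19.2 to 38.7). In the destruction complex, 5 of 7 genes stayed within 2-fold and 0 were higher in ES cells. The other 2 (28.6%, near the 25.8% of all listed genes) were *Apc2*, with 19.2 in ES cells and 224 in forebrain, and *Gsk3b*, with 195 and 811.

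**Figure D4:**
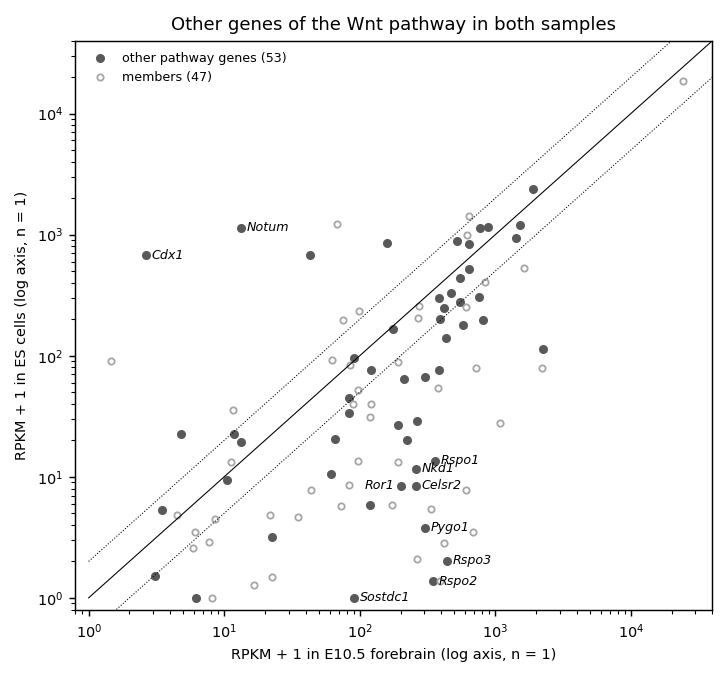
RPKM + 1 in E10.5 forebrain (x) and ES cells (y), both on log axes, for the 53 other genes of the pathway (filled) and the 47 members (open), 1 sample each. The solid line marks equal values and the dotted lines 2-fold. Labels mark the 10 other genes with the largest absolute log2 ratios on RPKM + 1 among those with an RPKM of at least 50 in a sample. Below the lower dotted line lie 26 of the filled points, and 5 lie above the upper one.

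Promoter sequences of RefSeq (GRCm38.p6, the 300 bases from 250 before to 50 after a start site) were matched to 32 members with 41 promoters. The members without an entry are *Wnt5a*, *Wnt7b*, *Wnt8a*, *Wnt10a*, *Fzd2*, *Fzd3*, *Fzd6*, *Fzd8*, *Lrp5*, *Lrp6*, *Lgr5*, *Sfrp1*, *Sfrp4*, *Dkk3* and *Porcn*. The member promoters were rich in CpG. A GC content of at least 50% together with an observed over expected CpG ratio of at least 0.6 was found in 29 of the 41 (70.7%), compared with 33.5% of all 32851 promoters. The median GC content was 67.3% and that of all promoters 52.7%. The members with the largest ratio in each direction among those with 1 promoter, *Fzd5* (18.0-fold higher in ES cells) and *Frzb* (1020.2-fold higher in forebrain), both fall into this class. The 250 bases upstream of their start sites are shown as the ends of this range, with CG dinucleotides in capitals. They lie at chr1:64737751-64738000 and chr2:80447397-80447646, respectively, both on the reverse strand.
Fzd5: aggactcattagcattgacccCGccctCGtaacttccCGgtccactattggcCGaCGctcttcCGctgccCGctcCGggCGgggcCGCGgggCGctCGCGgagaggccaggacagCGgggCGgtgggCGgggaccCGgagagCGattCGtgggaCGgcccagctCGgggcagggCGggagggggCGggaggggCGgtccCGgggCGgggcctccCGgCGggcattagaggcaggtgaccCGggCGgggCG
Frzb: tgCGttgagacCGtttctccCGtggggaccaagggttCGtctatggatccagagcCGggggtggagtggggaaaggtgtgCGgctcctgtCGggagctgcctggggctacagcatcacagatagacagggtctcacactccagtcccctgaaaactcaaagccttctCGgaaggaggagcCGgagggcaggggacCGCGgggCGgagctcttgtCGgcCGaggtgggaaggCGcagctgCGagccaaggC
Over the 300 bases, *Fzd5* has 38 CG dinucleotides and a GC content of 75.7%, and *Frzb* has 20 and 64.7%.

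The promoters were also searched on both strands for CTTTG followed by AA, AT, TA or TT, the letters of the core that TCF/LEF factors bind. At least 1 match was found in 7 of the 41 member promoters (17.1%) and in 16.9% of all promoters. These shares were not compared at equal GC content, which had a median of 67.3% in member promoters and 52.7% in all. They therefore do not show whether the members stand out. The 7 promoters belong to *Fzd7*, *Lef1*, *Wnt5b*, *Wnt11*, *Wnt3*, *Dkk1* and *Tcf7l2*. *Dkk1* was the only member with 2 matches in a promoter, and *Wnt11* is shown beside it as a ligand with a match close to a start site. The other *Wnt11* promoter (chr7:98838595-98838894) has 0 matches and is not shown. Matches are in capitals, upstream bases only (chr19:30549497-30549746, reverse strand, and chr7:98834862-98835111, forward strand).
Dkk1: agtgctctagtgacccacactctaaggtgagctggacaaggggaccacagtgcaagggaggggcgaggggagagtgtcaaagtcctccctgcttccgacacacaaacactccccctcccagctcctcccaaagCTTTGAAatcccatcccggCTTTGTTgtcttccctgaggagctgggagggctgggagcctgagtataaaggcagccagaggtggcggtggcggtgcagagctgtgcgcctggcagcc
Wnt11: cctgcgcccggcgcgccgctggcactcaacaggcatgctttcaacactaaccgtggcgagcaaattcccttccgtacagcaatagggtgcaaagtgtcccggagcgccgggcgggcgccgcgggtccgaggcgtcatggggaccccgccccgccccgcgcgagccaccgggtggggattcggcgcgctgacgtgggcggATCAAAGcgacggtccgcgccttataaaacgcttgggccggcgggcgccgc
In *Dkk1* the matches begin 117 and 98 bases upstream of the start site and read forward. In *Wnt11* the match begins 51 bases upstream and is on the other strand. *Dkk1* was 2.27-fold higher in forebrain and the ratio interval of *Wnt11* includes 1. A match describes the letters of this window and is no evidence of binding.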

How the data were processed

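RNA-seq of 2 samples was analysed, 1 of ES cells and 1 of E10.5 forebrain. After depletion of rRNA, the authors made strand-specific libraries, mapped the reads with the HTSstation pipeline to mm9 (NCBIM37) and deposited a single RPKM per gene. The submitters' processing notes name Bowtie 0.12.7. The scaling per sample is not given in the sources used here. The labels give 100 bp reads, and the methods another length.

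Exonic lengths were taken from the annotation of the same build, with which all 29311 listed genes agreed in position. The annotation holds 37310 genes, and none of those listed is at 0 in both samples. For genes of at most 2500 exonic bp, 65.8% of 6314 low values in ES cells and 68.5% of 5976 in forebrain lay within 0.05 of a whole number of reads, where 10% would by chance. Reads of all genes were inferred from this step and rounded, so they are estimates. Depending on exonic length, 3 reads equal an RPKM between 0.357 and 2.10 (ES cells) or between 0.239 and 1.41 (forebrain).

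Ratios were called past 2-fold on log2((RPKM + 1)/(RPKM + 1)), which understates low genes. Fold values in the text are ratios of RPKM without the added 1. Intervals are exact (Poisson for levels, Clopper-Pearson for ratios). The members and lists were chosen with earlier results of these data known. Every member with at least 3 inferred reads in either sample is named, which covers all 47. Other pathway genes are named where they are among the 10 largest absolute log2 ratios and reach an RPKM of 50 in a sample. Single marker genes and *Rspo4*, *Apc2*, *Gsk3b*, *Wls*, *Lgr4* and *Lgr6* were chosen after their values were seen, as were the promoters printed. Alternatives covered pseudocounts of 0.1 and 5, the scaling, filters on low values, a 4-fold limit and, added after the data were seen, the second *Fzd10* identifier. The step and the calls were tried on simulated data made of whole reads. This does not test the real values that lie between whole numbers of reads. Near-identical stretches (at least 98% over at least 50 bp) were searched with blastn 2.17.0. Tables were handled in pandas 2.3.3 (Python 3.11.15), intervals in scipy 1.17.1 with numpy 2.4.6, and plots in matplotlib 3.10.9.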

Additional observations from a re-analysis of the deposited data

How the results depend on the processing

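No paired analysis was possible because there is 1 sample per group and the labels give no replicate numbers. Under other pseudocounts, scalings and filters, 28 to 33 members were at least 2-fold higher in forebrain and 4 to 6 in ES cells, and the median log2 ratio of the members ranged from -1.87 to -1.29. With a 4-fold limit, 2 members (*Wnt8a* and *Fzd5*) remained higher in ES cells and 21 in forebrain. Dividing each sample by the sum of its values shifted the median log2 ratio of all listed genes from -0.01 to -0.26, and *Fzd10* (0.90) and *Tcf7* (0.99) then fell just short of 2-fold while *Fzd9* (-1.18), *Wnt10a* (-1.03) and *Wnt16* (-1.14) passed it. *Wnt10a* (-1.03) and *Wnt16* (-1.08) also passed with a pseudocount of 0.1, *Wnt2* (-0.77) and *Wnt10b* (-0.59) fell short with a pseudocount of 5, and *Lrp6* (-0.94) fell short on division by the upper quartile. Among genes that differed by less than 2-fold, *Wnt5b* (0.01) and *Lef1* (0.06) changed sign on division by the upper quartile and *Sfrp5* (-0.09) on division by the sum. The second *Fzd10* identifier, added after the data were seen, left the counts at 6 and 30. Depth limits the members under 3 reads, which were *Wnt1*, *Wnt9b* and *Frzb* in ES cells and *Wnt8a* in forebrain.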
